A study of Mus musculus with 18 samples.

Results

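The interleukin 1 (IL-1) family was followed through 10 genes for ligands and receptors in MPC3, a mouse prostate cancer cell line in which Rnf185 had been knocked down. RNF185 is a ubiquitin ligase of the endoplasmic reticulum that takes part in the disposal of misfolded proteins. The 10 genes, out of 47643 in the count table, are Il1rl1, Il33, Il1r1, Il1rap, Il1rn, Il1a, Il1b, Il18, Il18r1 and Il1rl2. The family was selected on the measured values of Il1rl1, which was higher than control with one hairpin and lower with the other, so those values are given below as a description with no test. The remaining 9 genes were listed by family membership. A low-count filter left 7 of the 10 for testing, and Il1b, Il18r1 and Il1rl2 stayed below it.

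RNA was measured by polyadenylated, strand-specific RNA-seq in 18 libraries of MPC3. The 6 control libraries carried plko, as the labels name the vector, and the other 12 carried shRNF185.1 or shRNF185.3, which are short hairpin RNAs against Rnf185, in 6 libraries each. No other agent, allele or time point is named, and each of 3 labelled batches holds 2 libraries of every group. The labels do not say whether libraries of a group came from separate cultures or clones, so the p-values measure the spread between these libraries, which may be technical.

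IL-1 family cytokines bind a primary receptor, which then recruits a shared accessory chain, encoded by Il1rap for IL-1 and IL-33 and by Il18rap for IL-18. The joined receptors pass the signal through MYD88 and IRAK kinases to NF-kB. IL-1 alpha and IL-33 are held inside cells and act as alarm signals when cells are damaged, while IL-1 beta and IL-18 are made as precursors that caspases cut. Il1rl1 encodes ST2, the receptor for IL-33, both as a membrane form and as a soluble form that acts as a decoy, and gene-level counts cannot tell the forms apart. Epithelial cells, stroma and leukocytes all make members of this family in solid tissues.

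Libraries held between 22027395 and 43379662 counts, and 3 counts in a library corresponded to between 0.0701 and 0.133 CPM, the deposited library-scaled counts. Rnf185 itself was 35.9 ± 1.96 CPM in control, 5.81 ± 0.582 under shRNF185.1 and 5.80 ± 0.546 under shRNF185.3 (mean ± SD, n = 6 libraries per group, as throughout), and all hairpin libraries lay below all control libraries. Its log2 fold change was -2.63 (SE 0.07) with either hairpin. Of 7 mast cell and basophil markers, Cpa3, Tpsb2 and Fcer1a had at most 3 counts over all libraries together, as for the lists below. The list summed to 1.12 to 1.65 CPM in control, 0.969 to 1.51 under shRNF185.1 and 1.11 to 1.33 under shRNF185.3. It had 2 genes above the filter. Of 7 macrophage and dendritic cell markers, Adgre1 and C1qa had at most 3 counts, and the list summed to 38.4 to 54.8, 42.4 to 69.6 and 49.9 to 63.2 CPM in the same order, with Cd14 as the 1 gene above the filter. Of the T cell and innate lymphoid markers 6 of 7 had at most 3 counts. Summed levels of the T cell and innate lymphoid list were 0 to 0.207 CPM in control, 0.0409 to 0.228 with shRNF185.1 and 0.0358 to 0.249 with shRNF185.3. The 5 leukocyte markers together gave 1.00 to 1.74, 0.998 to 1.64 and 0.657 to 1.66 CPM in the same order. Of the prostate genes Hoxb13 was measured, but Pbsn had at most 3 counts over all libraries together. The epithelial marker Epcam had at most 7 counts in any library.

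Gene positions were read from GENCODE M21, build GRCm38. The receptor genes Il1r1, Il1rl2, Il1rl1 and Il18r1 lie side by side on the forward strand of chromosome 1, Il1rl1 at chr1:40429570-40465415, with 136 bases between its end and the start of Il18r1. Il1a (chr2:129299610-129309972) and Il1b (chr2:129364570-129371139) are neighbours on the reverse strand of chromosome 2, and Il1rn lies elsewhere on its forward strand (chr2:24336853-24351494). Il33 lies on chromosome 19 (chr19:29925114-29960718), Il18 on chromosome 9 (chr9:50554827-50581840) and Il1rap on chromosome 16 (chr16:26581704-26730117).

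Il1rl1 has 2 RefSeq start sites in the table of promoters used here, and both upstream windows are shown for that reason, although GENCODE also lists transcripts that start elsewhere. As background, the upstream promoter is known from mast cells and helper T cells and the downstream one from fibroblasts. Each sequence is the 250 bases before the RefSeq start on GRCm38.p6, 5′ to 3′ on the gene's strand, with capitals marking AGATAA or TGATAA, the letters of GATA factor sites, on either strand. The first window is chr1:40429320-40429569 and the second chr1:40439379-40439628, both on the plus strand.
Il1rl1 promoter 1: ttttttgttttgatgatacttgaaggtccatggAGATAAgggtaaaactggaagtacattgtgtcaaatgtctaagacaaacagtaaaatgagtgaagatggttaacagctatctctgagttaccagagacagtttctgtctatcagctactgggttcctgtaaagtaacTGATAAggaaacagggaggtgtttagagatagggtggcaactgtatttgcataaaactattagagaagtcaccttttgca
Il1rl1 promoter 2: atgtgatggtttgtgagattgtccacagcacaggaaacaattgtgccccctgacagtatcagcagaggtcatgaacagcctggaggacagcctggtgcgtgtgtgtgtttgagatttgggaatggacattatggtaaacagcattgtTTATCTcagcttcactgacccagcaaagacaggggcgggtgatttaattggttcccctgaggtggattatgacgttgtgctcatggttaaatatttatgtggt
The upstream window holds AGATAA at -217 to -212 and TGATAA at -80 to -75, counted back from the start, and the downstream window holds AGATAA on the minus strand at -103 to -98, printed as TTATCT. Of all 32851 promoters in the table, cut to the same length, 9.99% hold AGATAA and 7.94% hold TGATAA. A match describes letters and not a bound site, and the counts per gene do not show which start was used.

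The windows of 2 ligand genes are shown next, Il1a at chr2:129309973-129310222 on the minus strand and Il18 at chr9:50554450-50554699 on the plus strand. The downstream window of Il33 follows, at chr19:29945540-29945789 on the plus strand. Il1a passed the test against control with both hairpins. Il18 did so only with shRNF185.3, the group through which alone it passed the low-count filter. Capitals mark TATAAA, the TATA box letters, on either strand, and in Il1a also TGANTCA, the letters of an AP-1 site.
Il1a promoter: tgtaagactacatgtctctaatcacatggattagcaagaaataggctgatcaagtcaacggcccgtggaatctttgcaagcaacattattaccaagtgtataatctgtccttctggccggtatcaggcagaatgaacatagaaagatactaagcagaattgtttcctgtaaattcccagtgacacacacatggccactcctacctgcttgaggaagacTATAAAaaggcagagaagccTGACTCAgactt
Il18 promoter: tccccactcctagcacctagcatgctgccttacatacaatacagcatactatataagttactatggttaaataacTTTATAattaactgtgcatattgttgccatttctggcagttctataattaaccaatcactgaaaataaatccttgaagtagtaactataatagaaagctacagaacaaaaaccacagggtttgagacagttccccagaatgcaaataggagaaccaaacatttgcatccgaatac
Il33 promoter 2: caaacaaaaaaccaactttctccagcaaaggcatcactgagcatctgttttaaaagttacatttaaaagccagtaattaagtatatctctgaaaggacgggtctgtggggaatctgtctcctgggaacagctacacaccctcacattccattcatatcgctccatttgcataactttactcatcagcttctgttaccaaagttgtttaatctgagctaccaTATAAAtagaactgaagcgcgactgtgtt
In the Il1a window TATAAA spans -32 to -27 and TGACTCA spans -12 to -6. In the Il18 window TATAAA is on the minus strand at -175 to -170, printed as TTTATA, and in the Il33 window it spans -29 to -24. TATAAA occurs in 12.4% and TGANTCA in 6.75% of all promoters. The NF-kB motif, present in 3.90% of all promoters, and the interferon-stimulated response element, present in 2.98%, were not found in the 5 printed windows.

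Levels in control libraries ran over orders of magnitude, and per kilobase of exonic length the order was headed by Il33 and the receptors. Il33 stood at 16.9 CPM per kb, Il1r1 at 5.85 and Il1rl1 at 5.05, and the ranges of these neighbours in the order overlapped. Il1rap (1.15 CPM per kb) and Il1rn (1.05) overlapped each other and lay below every control value of Il1rl1. Il1a followed at 0.507 CPM per kb, then Il18 at 0.0746 and Il18r1 at 0.0671, which overlapped. Il1b (0.00601 CPM per kb) and Il1rl2 (0) were at the floor, with at most 1 count per library.

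**Figure D1:**
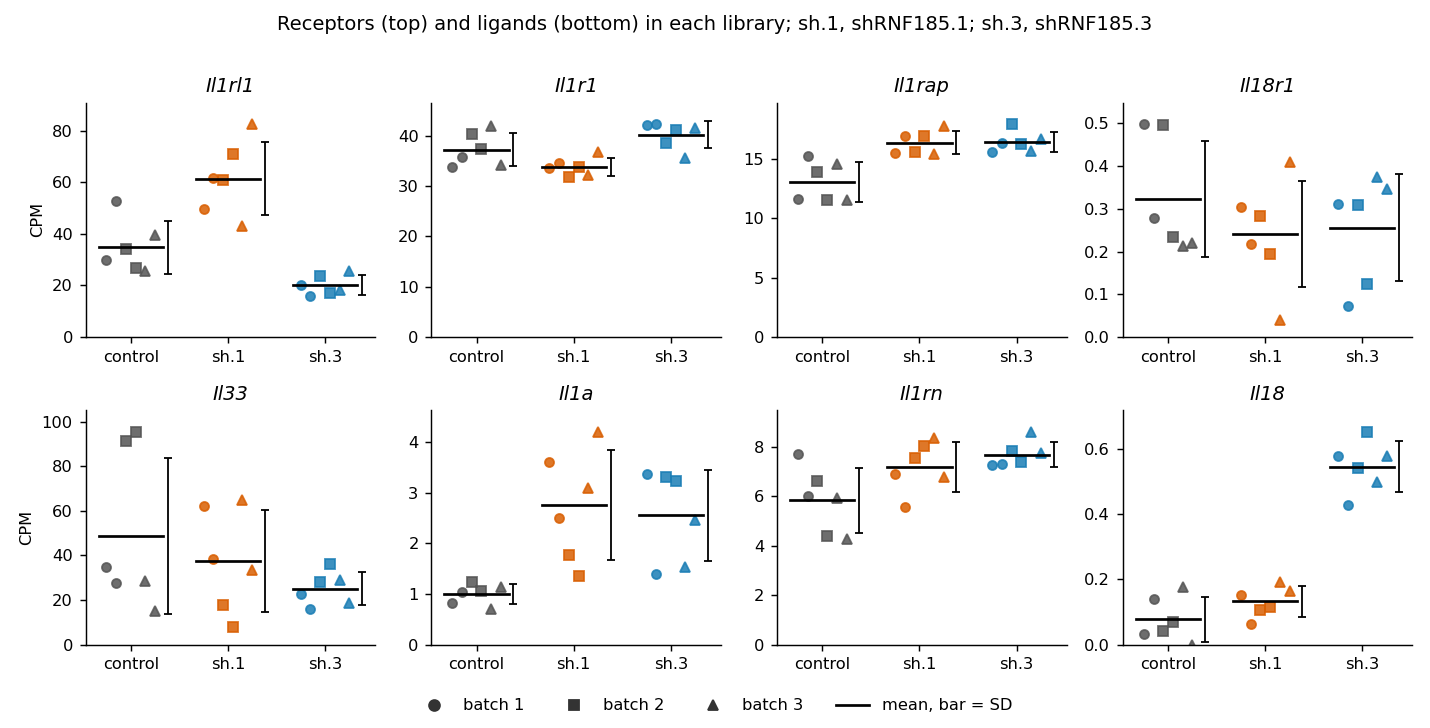
Level in CPM of 4 receptor genes (top) and of 3 ligands and the antagonist Il1rn (bottom) in each library, by group, with a separate axis per gene. Points are libraries, shaped by batch, lines are group means and bars SD; Il1rl1 is highest with shRNF185.1 and lowest with shRNF185.3, and Il33 spreads from 7.95 to 95.6 CPM.

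Of the receptors, Il1rl1 is described first, since the family was selected on its difference between the hairpins. Its level in control was 25.5 CPM in the lowest library, 32.0 at the median and 52.8 in the highest. With shRNF185.1 the same figures were 43.0, 61.3 and 82.6 CPM, and with shRNF185.3 they were 16.0, 19.2 and 25.7 CPM. Each hairpin group overlapped control, with 4 of 6 shRNF185.1 libraries above the highest control and 5 of 6 shRNF185.3 libraries below the lowest, while the 2 hairpin groups did not overlap each other, a separation found for 8.25% of tested genes, 3.79% as lower with shRNF185.3. Counts behind these values were 717 to 1518 in control, 1113 to 2020 and 434 to 666. From the shares of tested genes nothing is read for Il1rl1.

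The log2 fold change of Il1rl1 was 0.82 (SE 0.18) with shRNF185.1, -0.79 (SE 0.18) with shRNF185.3, and -1.61 (SE 0.18) for shRNF185.3 against shRNF185.1. These values chose the family and are not tested. Calls in opposite directions with the 2 hairpins were made for 0.496% of the 14309 genes tested, from which nothing is read for Il1rl1. By batch, in the order 1, 2 and 3, the libraries of shRNF185.1 differed from control by 0.48, 1.11 and 0.90 on the log2 scale, and those of shRNF185.3 by -1.13, -0.59 and -0.56. Mean Rnf185 was 5.81 and 5.80 CPM with the 2 hairpins, as given above, and the part of knockdown depth in the Il1rl1 values was not tested.

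Among the 5 genes whose log2(CPM + 1) was most like that of Il1rl1 over the 18 libraries were Nsf (r = 0.940), Ski (0.910) and Zbed3 (0.900). These correlations contain the differences between groups, and after removal of group means r was 0.694 for Nsf, 0.484 for Ski and 0.590 for Zbed3. Zbed3 was 22.2 ± 1.23 CPM in control, 27.1 ± 2.20 with shRNF185.1 and 13.3 ± 0.484 with shRNF185.3. Nsf, an ATPase of membrane fusion, went from 60.3 ± 2.69 CPM to 67.1 ± 3.15 and 55.1 ± 2.39 in the same order.

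Il1rap, the accessory chain shared by the IL-1 and IL-33 receptors, rose with both hairpins. It was 11.5 CPM in the lowest control library, 12.8 at the median and 15.2 in the highest. The corresponding values were 15.4, 16.2 and 17.7 for shRNF185.1, and 15.6, 16.3 and 17.9 for shRNF185.3. All 12 hairpin libraries lay above all control libraries. The rise was 0.32 on the log2 scale for shRNF185.1 (SE 0.07, adjusted p = 0.00268) and 0.33 for shRNF185.3 (SE 0.07, adjusted p = 0.00234), by edgeR's quasi-likelihood test with Benjamini-Hochberg adjustment over all 14309 genes, as for every adjusted p given here. Groups that did not overlap were found for 12.8% of tested genes with shRNF185.1, 7.02% as higher, and for 13.3% with shRNF185.3, 7.6% as higher. The GENCODE model of Il1rap overlaps Gm20319 on the opposite strand by 552 bases. The strand setting of the authors' counting is not given in the sources used here.

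Il1r1, the signalling receptor for IL-1 alpha and IL-1 beta, did not pass the test against control but differed between the hairpins. Its level ran from 33.8 CPM through a median of 36.5 to 42.0 in control, from 31.9 through 33.7 to 36.7 with shRNF185.1, and from 35.5 through 41.3 to 42.3 with shRNF185.3. Against control, shRNF185.1 gave a log2 fold change of -0.14 (SE 0.06, adjusted p = 0.087) and shRNF185.3 one of 0.11 (SE 0.06, adjusted p = 0.174). Between the hairpins the log2 difference was 0.25 (SE 0.06, adjusted p = 0.00687), with an overlap of the 2 groups. That call was lost without batch 1 (0.22) and without batch 2 (0.24), and against control shRNF185.1 was called without control replicate 1 (-0.17, adjusted p = 0.0487).

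Il18r1 encodes the primary receptor for IL-18 and starts 136 bases after the end of Il1rl1, yet it was barely detected. It had 6 to 15 counts per library in control, 1 to 10 with shRNF185.1 and 2 to 9 with shRNF185.3, which is 0.323 ± 0.137, 0.241 ± 0.125 and 0.256 ± 0.126 CPM. In a fit of every gene with a count, its log2 fold change was -0.40 (SE 0.41, adjusted p = 0.581) and -0.35 (SE 0.41, adjusted p = 0.641). Il1rl2, the IL-36 receptor, had 1 count in each of 3 hairpin libraries and none elsewhere.

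The rest of the chromosome 1 cluster showed levels that did not follow gene order. Il18rap, the accessory chain of the IL-18 receptor and the next gene after Il18r1 (chr1:40515362-40551705), was 15.6 ± 2.35 CPM in control, 13.1 ± 1.94 with shRNF185.1 and 16.9 ± 1.68 with shRNF185.3. Its log2 fold change was -0.25 (SE 0.10, adjusted p = 0.0785) and 0.12 (SE 0.10, adjusted p = 0.421), and between the hairpins it differed by 0.37 (SE 0.10, adjusted p = 0.0205). The last call was lost without batch 1 (0.35), without batch 2 (0.32), without shRNF185.1 replicate 1 (0.33) and without shRNF185.3 replicate 6 (0.34). Il1r2, the decoy receptor at the upstream end, had 0 to 6 counts, and Slc9a4, a sodium and proton exchanger at the downstream end, 0 to 3. Between the hairpins Il1rl1 was lower, and Il1r1 and Il18rap higher, with shRNF185.3.

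**Figure D2:**
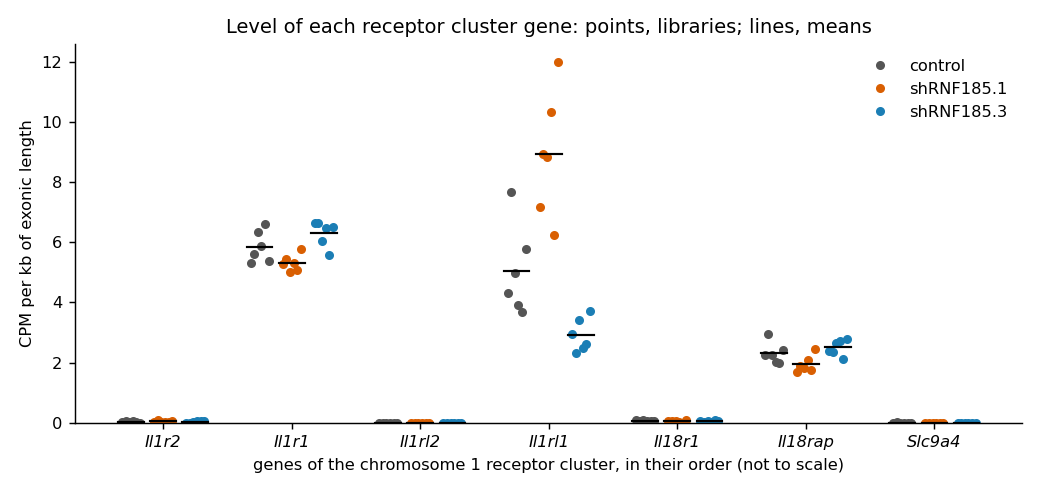
Level per kilobase of exonic length of the genes of the chromosome 1 receptor cluster, in CPM per kb, in the order of the genes along the chromosome. Points are single libraries of each group. Il1r1, Il1rl1 and Il18rap are expressed, at group means between 1.94 and 8.92 CPM per kb, while Il1r2, Il1rl2, Il18r1 and Slc9a4 lie near 0.

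Of the ligands, Il1a rose with both hairpins from a low level. It had 20 to 45 counts per library in control, 35 to 103 with shRNF185.1 and 37 to 104 with shRNF185.3. Control libraries held 0.710 CPM at the lowest, 1.05 at the median and 1.24 at the highest. The corresponding values were 1.36, 2.79 and 4.21 for shRNF185.1, and 1.39, 2.85 and 3.38 for shRNF185.3. No hairpin library overlapped the controls. The rise with shRNF185.1 was 1.45 on the log2 scale (SE 0.28, adjusted p = 0.000648), and by batch, in the order 1, 2 and 3, it was 1.62, 0.42 and 1.92. The rise with shRNF185.3 was 1.35 (SE 0.28, adjusted p = 0.00136), and by batch it was 1.17, 1.47 and 1.06. The GENCODE model of Il1a overlaps Gm14023 on the opposite strand by 222 bases, and whether the authors' counting used strand is not given in the sources used here.

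Il18 was at the edge of detection and was higher with shRNF185.3. Control libraries held 0 to 5 counts, shRNF185.1 libraries 2 to 5 and shRNF185.3 libraries 12 to 21, or 0.0769 ± 0.068, 0.132 ± 0.0467 and 0.546 ± 0.0768 CPM. All shRNF185.3 libraries lay above all other libraries, and 4.45% of tested genes were higher with shRNF185.3 than with shRNF185.1 without overlap. The gene passed the low-count filter only through shRNF185.3, so among tested genes it had to differ there. In the fit of every gene with a count, which has no such filter, the log2 fold change was 2.78 (SE 0.40, adjusted p = 3.34e-05) with shRNF185.3, 0.75 (adjusted p = 0.374) for the first hairpin, and 2.03 (SE 0.38, adjusted p = 0.00125) between the hairpins. On the log2(CPM + 1) scale the change with shRNF185.3 was 0.52, since that scale understates changes of low genes. Il1b, whose product is the other caspase-cut ligand, had at most 1 count per library and 3 counts in all.

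Il33 did not pass the test with either hairpin, and its libraries spread more than those of any other member with over 100 counts per library. Control held 15.1 CPM at the lowest, 31.7 at the median and 95.6 at the highest. The corresponding values were 7.95, 35.9 and 65.1 for shRNF185.1, and 16.1, 25.4 and 36.1 for shRNF185.3. Fitted over all batches, shRNF185.1 gave a log2 fold change of -0.38 (SE 0.46, adjusted p = 0.570) and shRNF185.3 one of -0.96 (SE 0.47, adjusted p = 0.137).

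The spread of Il33 followed the batches in a different way in each group. In batches 1, 2 and 3 the mean of the 2 control libraries was 31.2, 93.4 and 21.9 CPM. With shRNF185.1 it was 50.4, 12.9 and 49.2 CPM, and with shRNF185.3 it was 19.3, 32.2 and 23.7 CPM. Control was thus highest in batch 2, where shRNF185.1 was lowest, and within that batch the groups did not overlap. The log2 difference of shRNF185.1 from control was 0.66, -2.97 and 1.16 by batch, and that of shRNF185.3 was -0.70, -1.55 and 0.16. An interaction of group and batch, a test added after the values had been seen, gave F = 14.2 on 4 degrees of freedom (adjusted p = 0.00535), a call made for 9.81% of tested genes. Without batch 2 the direction with shRNF185.1 turned to a log2 fold change of 0.91 (SE 0.27, adjusted p = 0.0176). These counts had been adjusted for batch before deposit. After removal of group means, libraries of different groups and numbers within a batch had a mean correlation of -0.434 over 9671 genes. How much of the Il33 pattern comes from the adjustment was not tested.

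A keratin gene of luminal epithelium, Krt19, moved with Il33 across the libraries. It belongs to a list of 6 epithelial markers, and its batch means were 340, 760 and 229 CPM in control, 456, 163 and 491 for shRNF185.1, and 230, 284 and 264 for shRNF185.3. The correlation of its log2(CPM + 1) with that of Il33 over 18 libraries was 0.975, and 0.973 after removal of group means. Egln3 (0.943), Sfrp4 (0.935), Ccndbp1 (0.929) and Rab3d (0.927) came next, and these genes were chosen after their values had been seen. The batch means of Krt8 were also highest in control and lowest with shRNF185.1 in batch 2, over a narrower range, at 1145, 1307 and 1139 CPM in control and 879, 759 and 850 with shRNF185.1. Those of Cdh1 were 34.1, 41.4 and 29.7 CPM in control and 9.12, 8.05 and 10.7 with shRNF185.1, in the same order, with control libraries of batch 2 at 25.1 and 57.7 CPM. Krt18, by contrast, had batch means of 347, 354 and 361 CPM in control and 178, 182 and 172 with shRNF185.1. With shRNF185.3 the batch means were 814, 839 and 850 CPM for Krt8, 8.36, 7.69 and 7.92 for Cdh1, and 151, 146 and 151 for Krt18. None of these genes was highest in batch 2 with shRNF185.3, where Il33 and Krt19 were. The 6 markers summed to 1689 to 2531 CPM in control, 997 to 1745 with shRNF185.1 and 1160 to 1366 with shRNF185.3, with Epcam and Cldn7 at most at 7 counts. The part of epithelial cells in the Il33 values was not tested, and in bulk RNA fewer cells of a kind cannot be told apart from less RNA per cell.

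**Figure D3:**
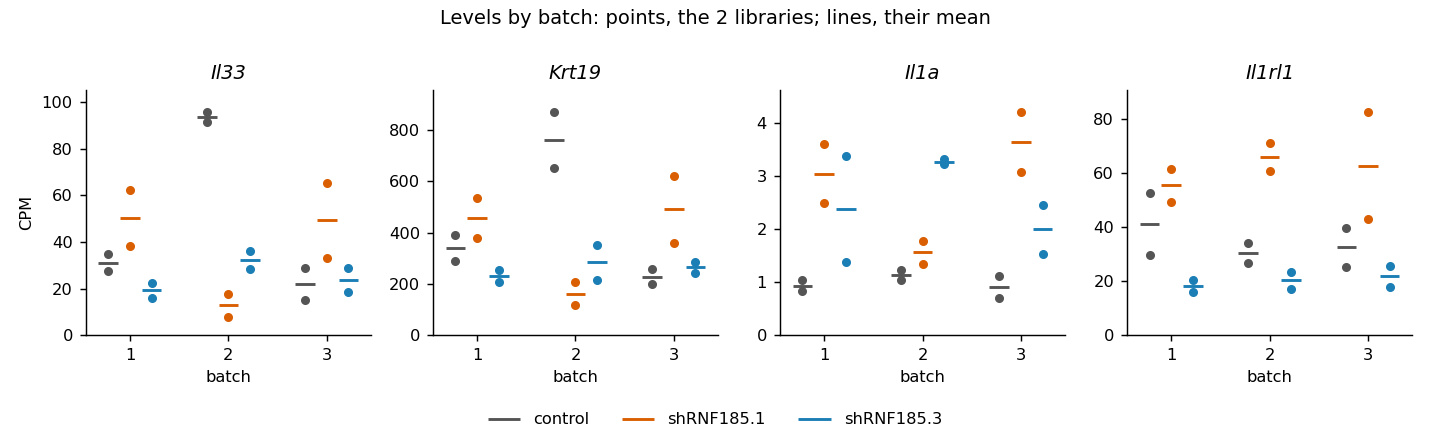
Levels of Il33, Krt19, Il1a and Il1rl1 by labelled batch, in CPM. Points are the 2 libraries of a group in a batch and lines their mean. Il33 and Krt19 are highest in control and lowest with shRNF185.1 in batch 2, while Il1a and Il1rl1 have the batch means of shRNF185.1 above control in every batch.

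Il1rn encodes the IL-1 receptor antagonist, which occupies IL-1R1 without signalling. It was 5.82 ± 1.32 CPM in control (4.27 to 7.71), 7.19 ± 1.01 with shRNF185.1 (5.55 to 8.34) and 7.68 ± 0.509 with shRNF185.3 (7.25 to 8.60), and both hairpin groups overlapped control. It rose with shRNF185.3, by 0.41 on the log2 scale (SE 0.13, adjusted p = 0.0255), while shRNF185.1 gave 0.31 (SE 0.13, adjusted p = 0.0857). The call with shRNF185.3 was lost without control replicate 4 (0.33), control replicate 6 (0.33) or shRNF185.3 replicate 5 (0.37), without batch 2 (0.37) or batch 3 (0.27), and with libraries summed by group and batch (0.44). With shRNF185.1 a call was made without control replicate 1 (0.40), without shRNF185.1 replicate 2 (0.37) and without batch 1 (0.54). By batch, in the order 1, 2 and 3, the difference on the log2 scale was -0.14, 0.52 and 0.57 for shRNF185.1, and 0.10, 0.49 and 0.69 for shRNF185.3.

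Counted over the 6 tested genes other than Il1rl1, 2 were called with shRNF185.1 (Il1rap and Il1a, both higher), where 28.9% of all tested genes were called, 14.6% as higher. With shRNF185.3, 4 were called (Il1rap, Il1rn, Il1a and Il18, all higher), where 27.3% of all tested genes were called, 14.2% as higher. Between the hairpins 2 were called (Il1r1 and Il18, both higher with shRNF185.3), where 14.7% of all tested genes were called, 7.72% as higher. Il18 is included with shRNF185.3 and between the hairpins, although it passed the filter only through shRNF185.3. The 2 comparisons with control share the control libraries, and the plot of fold changes sets them side by side.

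**Figure D4:**
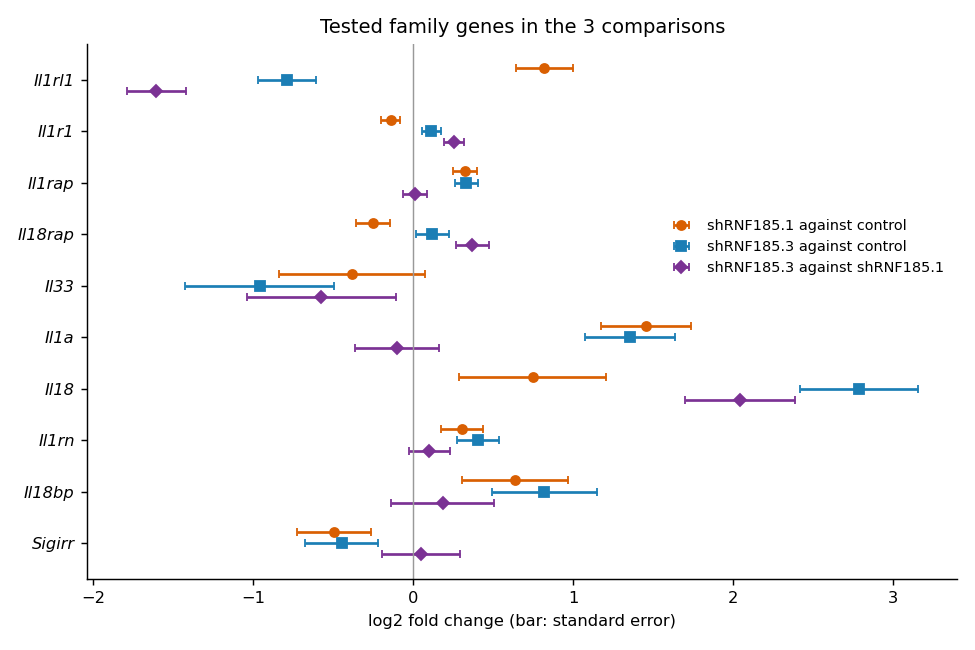
Log2 fold change of the tested family genes, which include Il18rap, Il18bp and Sigirr from the wider family, for each hairpin against control and for the 2 hairpins against each other. Points are fitted values and bars standard errors. Il1rl1 lies at 0.82 and -0.79 with the 2 hairpins, Il1a at 1.45 and 1.35, and the bars of Il33 are the widest or among the widest.

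Of 11 further ligands, receptors and decoys of the family, 3 passed the filter, and 0 were called by edgeR with either hairpin against control. At an unadjusted p under 0.05 there were 2 with shRNF185.1 and 1 with shRNF185.3, and DESeq2 and limma-voom called Il18bp with shRNF185.3. Il18bp, the secreted binder of IL-18, was 1.29 ± 0.712 CPM in control, 2.02 ± 0.684 with shRNF185.1 and 2.29 ± 0.599 with shRNF185.3. Its log2 fold change was 0.64 with the first hairpin (SE 0.33, adjusted p = 0.163) and 0.82 with the other (SE 0.33, adjusted p = 0.0714). By batch, in the order 1, 2 and 3, the differences were -0.21, 0.18 and 2.40 for the first and -0.11, 0.52 and 2.54 for the other, and without batch 3 the fitted values were -0.028 and 0.21. Sigirr, an inhibitory receptor of the family, was 0.544 ± 0.164, 0.387 ± 0.101 and 0.402 ± 0.0768 CPM, and its fitted change was -0.50 (SE 0.23, adjusted p = 0.116) and -0.45 (SE 0.23, adjusted p = 0.160). Il36a had 0 to 3 counts per library and Il36g 0 to 2, and Il36b, Il36rn, Il1f10, Il1rapl1 and Il1rapl2 were at 0.

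The route from the receptor to NF-kB was measured in full, with all 22 listed genes tested. The first hairpin, shRNF185.1, left 5 higher (Irak1, Peli3, Tab2, Ikbkg and Nfkb1) and 3 lower (Tab1, Ikbkb and Chuk), where 14.6% of all tested genes were higher and 14.3% lower. With shRNF185.3, 2 were higher (Tab2 and Ikbkg) and 6 lower (Irak3, Traf6, Tollip, Tab3, Ikbkb and Chuk), where the shares of all tested genes were 14.2% and 13.1%. The median log2 fold change was 0.04 and -0.02 against -0.02 over all genes in both comparisons. Ikbkg, the regulatory subunit of the IkB kinase complex, rose from 40.6 ± 2.36 CPM to 56.3 ± 4.35 with shRNF185.1 (log2 fold change 0.47, SE 0.07, adjusted p = 2.53e-05) and 49.3 ± 4.67 with shRNF185.3 (0.28, SE 0.07, adjusted p = 0.00312, lost without batch 1 at 0.25). Ikbkb, a catalytic subunit of the same complex, fell by 0.19 and 0.26 on the log2 scale (adjusted p = 0.00112, lost without batch 1, and 6.22e-05). Tab2, an adaptor of the TAK1 kinase, rose by 0.23 with each hairpin (adjusted p = 9.02e-05 and 8.96e-05).

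Between the hairpins 6 genes of the route (Myd88, Irak1, Irak3, Traf6, Peli2 and Rela) were lower with shRNF185.3, where 6.94% of all tested genes were. The median was -0.09 against -0.0004 over all genes. The number of genes of the route called ran from 3 to 7 with 1 library left out. Under the other alternatives it ran from 0 to 7, so the count of 6 was not stable. Irak3, an IRAK family member that restrains signalling, was 3.73 ± 1.29 CPM in control, 5.10 ± 0.889 with shRNF185.1 and 2.48 ± 0.458 with shRNF185.3, a log2 difference of -1.03 between the hairpins (SE 0.19, adjusted p = 0.000848, lost without batch 1 at -0.97). Its change with shRNF185.3 against control was -0.58 (SE 0.19, adjusted p = 0.0296). That call was lost with limma-voom, without batch 1, without batch 2, and without any of control replicates 1 and 3 or shRNF185.3 replicates 1, 2, 3, 4 and 6, with values from -0.39 to -0.58. Traf6, the ubiquitin ligase downstream of the IRAK kinases, fell by 0.35 on the log2 scale with shRNF185.3 (adjusted p = 3.27e-05), from 32.5 ± 2.33 to 25.5 ± 1.16 CPM. The call of Peli2, another ubiquitin ligase of the route, was -0.51 (SE 0.15, adjusted p = 0.0250) and was lost without batch 1, without batch 3, and without shRNF185.1 replicate 1, shRNF185.1 replicate 5 or shRNF185.3 replicate 6.

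Known response genes of IL-1 and NF-kB moved in both directions. Of 24 tested, shRNF185.1 had 7 higher and 6 lower, and shRNF185.3 had 3 higher and 6 lower, with medians of 0.17 and 0.02. Over all tested genes 14.6% were higher and 14.3% lower in the first comparison, and 14.2% and 13.1% in the other. Those higher with shRNF185.1 were Zc3h12a, Birc3, Il6, Csf1, Cxcl5, Saa3 and Nos2, and those lower were Tnfaip3, Lif, Csf2, Csf3, Ptgs2 and Vcam1. With shRNF185.3 the higher genes were Birc3, Cxcl5 and Nos2 and the lower ones Tnfaip3, Lif, Csf2, Csf3, Ptgs2 and Mmp3.

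Nos2, the inducible nitric oxide synthase, had the largest rise of the list. Control libraries held 5.87 CPM at the lowest, 10.3 at the median and 17.1 at the highest. The corresponding values were 19.0, 41.5 and 71.8 for shRNF185.1, and 30.9, 46.2 and 80.1 for shRNF185.3. No hairpin library overlapped control, and the log2 fold change was 1.92 (SE 0.35, adjusted p = 0.000341) and 2.18 (SE 0.35, adjusted p = 0.000111). In batch 2 the difference with shRNF185.1 was 0.30, against 2.91 in batch 1 and 2.43 in batch 3. Cxcl5, a chemokine for neutrophils, rose from 581 ± 111 CPM to 880 ± 94.9 and 887 ± 147 (log2 fold change 0.60 and 0.61, adjusted p = 0.000917 and 0.000786).

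Birc3, an inhibitor of apoptosis that also acts in NF-kB signalling, rose from 4.74 ± 0.709 CPM to 8.93 ± 1.18 with shRNF185.1 (log2 fold change 0.91, SE 0.11, adjusted p = 6.13e-06) and to 6.37 ± 0.734 with shRNF185.3 (0.43, SE 0.11, adjusted p = 0.00823, lost without batch 1 or batch 3). Saa3, an acute-phase protein, rose with shRNF185.1 by 1.65 on the log2 scale (SE 0.47, adjusted p = 0.0116), from 11.6 ± 8.64 to 35.9 ± 15.9 CPM, a call lost without batch 1 and without batch 3 (1.41). Mmp3, a secreted matrix protease, was 123 ± 64.9 CPM in control and 65.0 ± 18.2 with shRNF185.3 (log2 fold change -0.92, SE 0.27, adjusted p = 0.0154), a call lost without batch 1, without batch 2 (-0.48) and with libraries summed.

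Genes that process or release the cytokines were partly absent, with 9 of 16 tested. Casp1, Pycard, Nlrp3, Nlrc4 and Aim2, the parts of inflammasomes, stayed below the filter. Of those tested, Casp4 and Gsdme were higher with both hairpins, and Casp8 was lower with shRNF185.3, which is 2 and 3 of 9 genes where 28.9% and 27.3% of all tested genes were called. Casp4, the mouse sensor protease for intracellular lipopolysaccharide, rose from 2.55 ± 0.494 CPM to 4.38 ± 0.833 and 4.19 ± 0.810, with all hairpin libraries above all controls (log2 fold change 0.78 and 0.72, SE 0.15 each, adjusted p = 0.000808 and 0.00181). Gsdme, a pore-forming gasdermin, rose by 0.23 and 0.26 (adjusted p = 0.0114 and 0.00484), calls that were lost without batch 1 and without batch 2, and with shRNF185.1 also with libraries summed.

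Cytokines and receptors that act around IL-33 gave 8 tested genes of 13, of which shRNF185.1 had 2 higher (Il13ra1 and Gata3) and 2 lower (Il2rg and Areg), where 14.6% and 14.3% of all tested genes were. With shRNF185.3, 3 were higher (Il13ra1, Crlf2 and Gata3) and 2 lower (Tslp and Areg), where 14.2% and 13.1% of all tested genes were. Il5, Il9, Il13, Il25 and Il4, the type 2 cytokines and IL-25, stayed below the filter. Areg, which encodes the growth factor amphiregulin, fell by 1.71 on the log2 scale with shRNF185.1 (SE 0.18, adjusted p = 1.3e-06) and by 2.21 with shRNF185.3 (SE 0.19, adjusted p = 1.01e-07). Its libraries held 12.8, 16.4 and 23.7 CPM at the lowest, median and highest in control, 3.65, 5.51 and 6.85 for shRNF185.1, and 2.77, 3.52 and 5.29 for shRNF185.3, with no overlap with control. Il13ra1, a receptor chain for IL-13, rose from 75.8 ± 13.1 CPM to 112 ± 20.8 and 109 ± 11.6 (log2 fold change 0.56 and 0.52, adjusted p = 0.00236 and 0.00422), both lost without batch 3 and the first also without batch 1. Crlf2, the receptor chain for TSLP, rose by 0.34 with shRNF185.3 (SE 0.08, adjusted p = 0.00394, lost without batch 1). Gata3, a transcription factor of type 2 lymphocytes and some epithelia, rose by 0.18 and 0.17 (adjusted p = 0.0113 and 0.0210), both lost without batch 1 and without batch 3, and with shRNF185.3 also with no filter and without control replicate 6 or shRNF185.3 replicate 4.

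**Figure D5:**
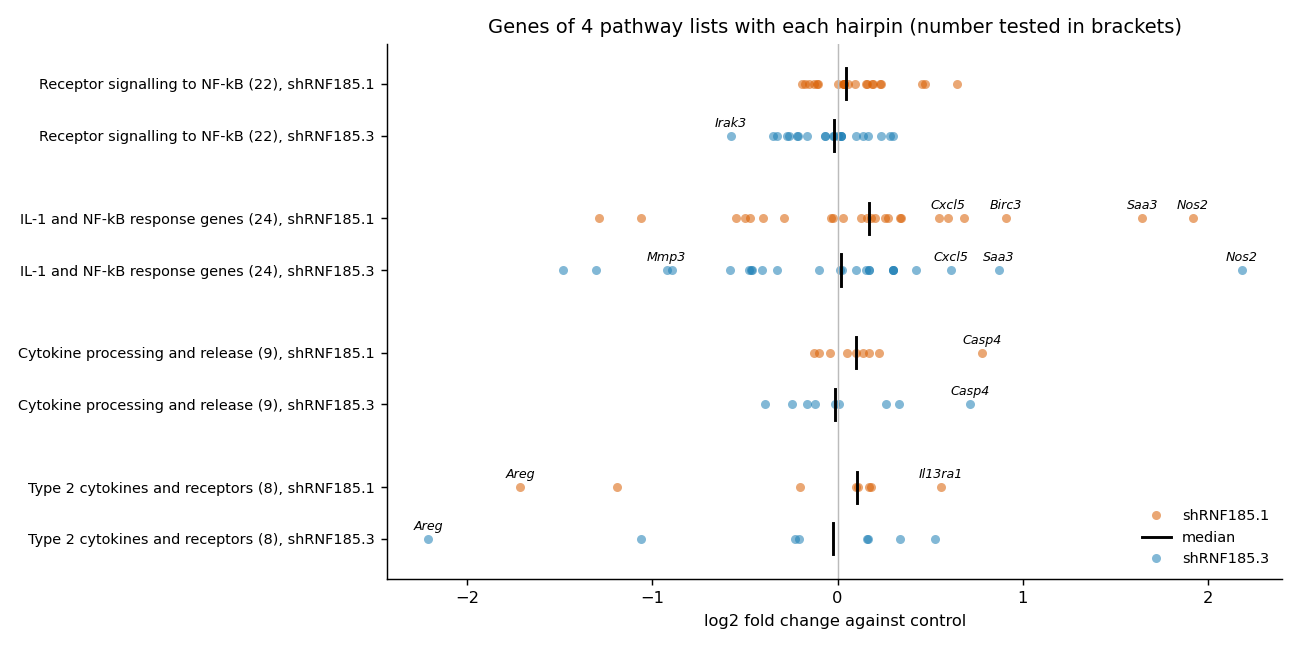
Log2 fold change against control of the tested genes of 4 pathway lists, with shRNF185.1 and shRNF185.3 in separate rows. Points are genes, black bars medians, and the 2 rows of a list share the control libraries. Nos2 lies at 1.92 and 2.18 and Areg at -1.71 and -2.21, while the medians of all lists lie between -0.03 and 0.17.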

How the data were processed

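Per the submitters' processing notes, the tools were cutadapt 2.3, STAR 2.7.0d and RSEM 1.3.1, with build mm10. The counts the authors deposited are adjusted for batch by ComBat-Seq, per the labels, and are treated here by the rules for expected counts, since 0.466% of them, or 3998 values over 1823 genes, have a fraction. Rounding came first, although the planned design had assumed whole counts. The annotation, the strand setting and the model given to ComBat-Seq are not given in the sources used here. The deposited CPM are a signal scaled by the authors to effective library sizes, with column sums of 969986 to 1026394. An adjustment for batch can shift low counts and narrow the spread between libraries.

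Counts were fitted in R 4.3.3 with edgeR 4.0.16 (TMM scaling, filterByExpr with a minimum count of 10, quasi-likelihood F test, a mean per group over all 18 libraries, no covariate). Of 47643 genes 14309 were tested, and a gene was called at a Benjamini-Hochberg adjusted p under 0.05 over all of them. Alternatives used DESeq2 1.42.0 and limma 3.58.1 and other scalings, filters, covariates and subsets of libraries. On simulated counts, 193 of 200 changed genes were recovered, with 9 false calls. The simulation had no batch structure and changed only genes with a mean count of at least 50, all by a single set size. Its figures therefore do not cover genes with low counts or smaller changes. All 45 pairs of libraries of a group differed beyond counting noise (chi-square per gene 7.64 or more), so none was a duplicate in the deposited counts. The check was made after the batch adjustment, which can alter counts differently in each batch. It therefore cannot exclude the same library entered in different batches. Batches are those of the labels. Positions are GENCODE M21 and promoters RefSeq on GRCm38.p6, in which 10 of 10 genes matched by symbol. No 75-base window of a member's transcripts occurs in the same orientation in a transcript of another gene. The opposite strand was not searched. Identifiers were matched to symbols for 99.1% of genes.

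The members and gene lists were chosen with earlier results of these data known. Named were the members, Rnf185, other family genes with a count, neighbours in the clusters, the 5 genes most like Il1rl1 (Pearson r of log2(CPM + 1)), and in each list up to 4 genes by the mean of both hairpins and up to 2 by the difference between them, with a mean count of at least 50. Genes in a count of calls are listed beside it. Some genes that this rule or the marker lists cover are not reported here.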

Additional observations from a re-analysis of the deposited data

Results flagged for a closer look

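The 2 hairpins differed from each other in 9 named genes, Il1rl1 among them, some of which were named for that difference. Over all tested genes 14.7% were called between the hairpins. Mean Rnf185 was 5.81 and 5.80 CPM under them, and the part of knockdown depth in these differences was not tested. Of the family, the log2 difference of shRNF185.3 from shRNF185.1 was -1.61 for Il1rl1, which was chosen for it and is not tested, 0.25 for Il1r1, 2.04 for Il18 and 0.37 for Il18rap. Il18 was tested there only because it was high with shRNF185.3, and the fit without a filter gave 2.03. Of the pathway lists it was -1.03 for Irak3, -0.51 for Peli2, -0.49 for Birc3, -0.89 for Mmp3 and -0.22 for Traf6. The calls of Il1r1, Il18rap, Irak3, Peli2, Birc3, Mmp3 and Traf6 were each lost in at least 1 fit with a batch left out. That of Mmp3 was also lost with batch as a covariate, with libraries summed by group and batch, and without any of shRNF185.1 replicates 1, 5 and 6 or shRNF185.3 replicates 2, 3, 4 and 6.

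Il33 is listed because its differences between groups were not the same in the 3 batches (F = 14.2 for the interaction of group and batch). With shRNF185.1 it was above control in batches 1 and 3 and below it in batch 2. What the batch adjustment of the deposited counts adds to this was not tested. No library stood apart from its group in the 33 groups of 6 values examined, where chance alone would give 1.65.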

How the results depend on the processing

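Il1rap and Il1a kept their calls with both hairpins under every alternative, with log2 fold changes of 0.29 to 0.37 and 0.28 to 0.38 for Il1rap, and 0.86 to 1.84 and 0.79 to 1.48 for Il1a. Values of Il18 with shRNF185.3 ran from 0.52 to 3.17, and since its place among tested genes rests on that group, its calls there are no sign of stability. Leaving out a batch moved the counts of calls in both directions: without batch 2 they were 5119 with shRNF185.1 (main count 4141, 3197 genes shared) and 5411 for both hairpins averaged (main count 4701, 3720 shared). Genes called were 2207 with shRNF185.1 without batch 1, 2120 with shRNF185.3 without batch 1 and 2501 without batch 3, 2672 and 3106 for both hairpins averaged without batches 1 and 3, and 753 and 1208 between the hairpins without batches 1 and 2. Leaving out 1 library gave 3692 to 4215, 3338 to 3995, 4120 to 4797 and 1696 to 2283 genes in the same order. Members called between the hairpins numbered 1 without batch 1, and with shRNF185.1 they ranged from 2 to 4 when 1 library was left out, the highest without control replicate 1. Genes called in the pathway lists (27, 25 and 12 for shRNF185.1, shRNF185.3 and the difference between them) fell to 15, 14 and 3 without batch 1, the last to 5 without batch 2, and to between 7 and 15 with 1 library left out, the lowest without shRNF185.1 replicate 1. The application of all alternatives to the lists was chosen after seeing the data.

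Directions turned for Il33 with shRNF185.1 without batch 2 (0.91) and for Il18bp with shRNF185.1 without batch 3 (-0.028). Differences between the hairpins near 0 also turned: for Il1rap with no filter (-0.000306), without batch 2 (-0.030) and with 1 library left out (-0.017 to 0.033), and for Il1a without batch 1 (0.031), without batch 3 (0.29) and with 1 library left out (-0.24 to 0.055). Il33 was called lower with shRNF185.3 than with shRNF185.1 without batch 2 (-1.22). Il18bp was called with shRNF185.3 under DESeq2 (0.83), limma-voom (1.02), limma on log2(CPM + 1) (0.57) and on log2(CPM + 0.1) (0.96), without batch 1 (1.35) and without control replicate 1 (1.02). Calls were also made with shRNF185.1 for Il18rap without batch 3 (-0.34) or shRNF185.1 replicate 6 (-0.33) and for Sigirr without control replicate 6 (-0.61). Beyond smaller sets of libraries, the cause was not tested.

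Whether replicate numbers pair the libraries was not settled. After removal of group means, same-numbered libraries of different groups had a mean correlation of -0.0144 over 18 pairs. These ran from -0.628 to 0.705, with 4 over 0.1. The mean was -0.434 for other numbers of the same batch and 0.111 across batches, and 2 libraries were closest to their own number. With the number as a replicate block, 3811, 3578, 4304 and 1976 genes and 2, 4, 4 and 2 members were called. Depth limits Il1b, Il1rl2, Il18r1 and Il18, which lie near the floor of 3 counts.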
